A study of Callithrix jacchus with 4 samples.

Results

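Cytosolic ribosomal protein genes were taken by name from single-nucleus RNA-seq of marmoset primary visual cortex (V1), as the genes whose symbols begin with RPL or RPS followed by a number, together with the RPLP and RPSA symbols where listed. The rule found 33 of the 16383 genes listed in the tables of both cohorts, 20 of the large ribosomal subunit and 13 of the small. All 33 had UMIs (unique molecular identifiers, 1 per captured transcript) in all 4 libraries and were followed through every annotated cell type. The rule also matched RPL37, RPLP2 and RPL10L, which stood in the table of the injured cohort alone, the first and second of them with 0 UMIs and RPL10L with 1. A further 25 ribosomal protein genes were listed by Ensembl identifier instead of symbol and served as a comparison set.

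The cytosolic ribosome translates every nuclear-encoded mRNA, and its proteins are made in matched amounts from genes that nearly every cell transcribes strongly. Their mRNAs are short, stable and among the most abundant in the cytoplasm, and their translation is governed by mTOR through a terminal oligopyrimidine tract at the 5′ end. Most of the proteins are carried into the nucleolus, where their assembly on rRNA into the large and small subunits begins before export. A few members have other known roles when free of the ribosome, among them the binding of MDM2 by RPL11 and the nuclear DNA repair activity of RPS3.

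The injured cohort was 3 adult marmosets (Callithrix jacchus), 1 library each, that received unilateral endothelin-1, a vasoconstrictor peptide that causes focal ischemic stroke, in V1 7 days before collection. Their tissue was V1 operculum gray matter and included the core and penumbra. The control cohort was 1 library pooled from 3 uninjured adult marmosets, so the spread between control animals is unknown, and every test below assumes that the control would vary as the 3 injured libraries do. The cohorts also differed in nuclei isolation, facility, sequencer and doublet removal, none of which can be told apart from the injury.

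The libraries held 7500, 12527 and 9510 injured nuclei and 8610 control nuclei, with 35737777, 48722394, 42956736 and 22832703 UMIs. The median nucleus had 3531 to 4504.5 UMIs in the injured libraries and 2117 in the control. Of 38022 distinct barcodes, 125 occurred in more than 1 library. Some annotated groups were low in a marker of their label. Of the 181 control nuclei annotated as endothelial (Endo), 155 formed cluster 15, where the endothelial receptor FLT1 stood at 10.9 UMIs per 1000000 UMIs of the group (CPM), and only the 26 nuclei of cluster 22 carried it strongly, at 2866 CPM. Among injured Endo nuclei, clusters 11 and 14 had FLT1 at 2684 and 2207 CPM, whereas cluster 19 had 21.6 CPM with the neuronal gene SYT1 at 2763 CPM, and cluster 20 had 31.5 CPM with collagen and decorin genes among those that led it. The endothelial markers FLT1, IGFBP7 and SLC2A1 together stood at 398 CPM in control cluster 15 and 4858 CPM in control cluster 22. In injured clusters 11, 14, 19 and 20 they stood at 4955, 6730, 183 and 803 CPM. Clusters 15 and 20 were thus low in these markers but not without them, and clusters 11, 14 and 22 are called marker-bearing below. Injured microglial cluster 16 held the T cell receptor gene CD247 at 376 CPM and the B cell gene MS4A1 at 136 CPM. There P2RY12, a microglial receptor, stood at 26.1 CPM. Results for Endo and microglia are therefore also given by cluster.

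The 33 genes took a larger share of the UMIs in every injured library than in the control library. Each share here is of the UMIs of all genes listed for its own cohort, 32323 for the injured and 16383 for the control. They gave 0.175%, 0.132% and 0.151% of all UMIs in injured libraries 1, 2 and 3 and 0.0479% in the control (95% exact binomial interval 0.0470 to 0.0488%, counting error only, as for all intervals here). The injured mean was 0.152% ± 0.0214 (SD, n = 3), 3.19 times the control share. A large part of that excess lay in nuclei annotated as Endo or microglia, which made up 15% and 26.2% of injured nuclei but 2.10% and 1.5% of control nuclei. Without Endo the ratio was 2.28, and without Endo and microglia it was 1.76, with 0.0944%, 0.0794% and 0.0781% in the injured libraries against 0.0477%. In the injured cohort Endo nuclei carried 8.69% of UMIs and 34.7% of the ribosomal protein UMIs. In the control cohort 74.4% of the ribosomal protein UMIs came from excitatory neurons (ExN), close to their part of all control UMIs (17090029 of 22832703).

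Within cell types the share was again higher in all 3 injured libraries than in the control, in each of the 7 types. Excitatory neurons held 0.0882%, 0.0747% and 0.0752% against 0.0476% in the control, a ratio of 1.67. Inhibitory neurons (InN) held 0.0862%, 0.0744% and 0.0766% against 0.0482%, a ratio of 1.64. Astrocytes (Astro) held 0.0988%, 0.0875% and 0.0789% against 0.0455%, a ratio of 1.94. These shares lay close together, and in none of the 3 types did the injured range reach down to the control interval, whose upper bounds were 0.0486%, 0.0507% and 0.0503%. Oligodendrocytes (Oligo) held 0.12%, 0.105% and 0.0970% against 0.0490%, a ratio of 2.19. Oligodendrocyte precursors (OPC) held 0.114%, 0.122% and 0.0908% against 0.0551%, a ratio of 1.97 that rested on 103 control UMIs.

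Microglia and Endo stood above the rest. Microglia held 0.198%, 0.205% and 0.163% in the injured libraries and 0.0538% in the control, where 129 nuclei gave 67 ribosomal protein UMIs and an interval of 0.0417 to 0.0684%, and the ratio was 3.50. Endo nuclei held 0.764%, 0.477% and 0.624% against 0.0598% from 122 control UMIs (0.0496 to 0.0714%), a ratio of 10.4. The order of the injured means was Endo, microglia, OPC, Oligo, Astro, ExN and InN. OPC and Oligo (0.109% ± 0.0161 and 0.107% ± 0.0117, SD, n = 3) and ExN and InN (0.0794% ± 0.00766 and 0.0791% ± 0.00627) were closer together than the spread between animals. Across types the injured means spanned 7.86-fold and the control shares 1.31-fold. In this dissected tissue a share of UMIs does not tell more ribosomal protein mRNA per nucleus from less of other RNA.

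**Figure D1:**
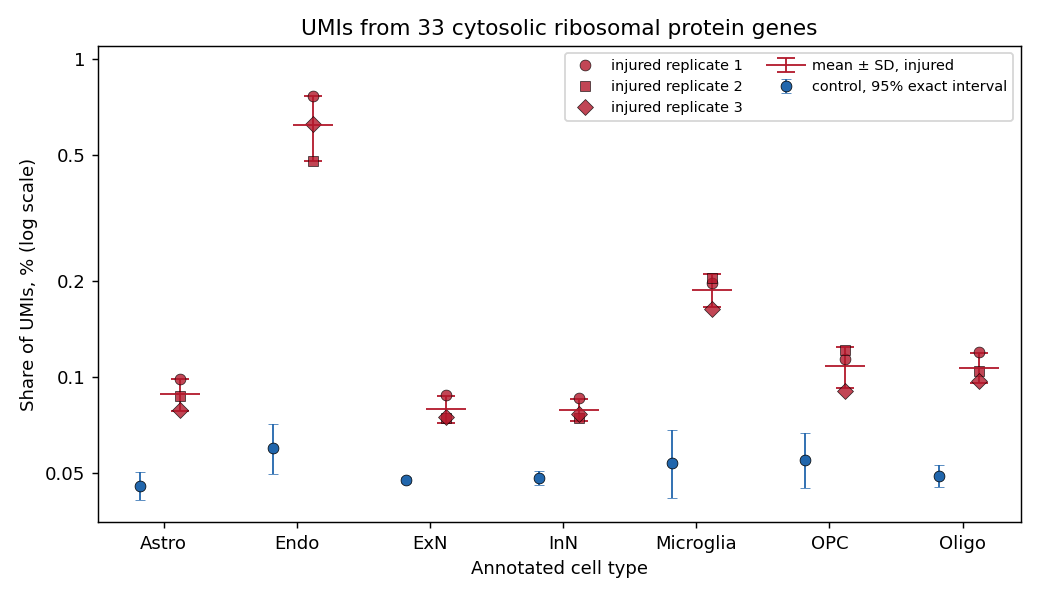
Share of UMIs from the 33 genes (percent, log scale) in each annotated cell type, with 1 point per injured library, the injured mean, and the control library with its 95% exact interval. All 3 injured points lie above the control in each type, and Endo, from 0.477% to 0.764%, lies farthest from it.

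Nuclei also carried these transcripts more often. With every nucleus thinned to 1000 UMIs, and shallower nuclei left out (7104 control nuclei kept), 70.7%, 64.6% and 64.9% of injured nuclei and 38.6% of control nuclei had at least 1 UMI of the 33 genes, where the unthinned values were 98.6%, 94.1%, 96.1% and 63.3%. In ExN the thinned values were 56.8%, 53.0% and 54.0% against 38.4%. In Endo they were 90.2%, 84.6% and 88.5% against 38.8% of 85 control nuclei. No annotated type lacks ribosomal protein mRNA, so no type gave a measure of free RNA in the droplets, and its part in these values was not tested. The share fell as nuclei grew deeper in most types, from 0.0950% in the shallowest of 4 equal groups of injured ExN nuclei to 0.0673% in the deepest and from 0.291% to 0.161% in injured microglia. Control ExN went from 0.0564% to 0.0449%. Injured Endo nuclei did not follow this, with 0.629%, 0.568%, 0.470% and 0.662% from the shallowest group to the deepest. Injured OPC nuclei did so only in part, with 0.119%, 0.101%, 0.0959% and 0.115%.

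Clusters within Endo differed from each other. Injured cluster 14, 1647 nuclei with endothelial markers, held 0.879% (1.16%, 0.701% and 0.911% by library), the highest of the 29 injured clusters. Cluster 11, 87 nuclei with the same markers, held 0.245%. Cluster 20, 705 nuclei, held 0.327% and the neuronal-marker cluster 19 held 0.294%. With 2005 of the 4444 injured Endo nuclei, cluster 19 was the largest of these clusters. Values over all injured Endo nuclei are therefore not those of endothelial cells alone. Hemoglobin beta (HBB) stood at 2921 CPM in cluster 11, 1239 CPM in cluster 19 and 684 CPM in cluster 14, so red cell RNA was present beside the ribosomal protein transcripts. Over all Endo nuclei the erythroid genes (3 listed) gave 0.0437%, 0.122% and 0.0475% of UMIs in injured libraries 1, 2 and 3 and 0.00098% in the control. The erythroid share also lay above the control in all 3 injured libraries in Oligo (0.0018% to 0.0191% against 0.000157%), Astro (0.00232% to 0.0233% against 0.000809%), ExN (0.000929% to 0.00442% against 0.000181%), InN (0.0010% to 0.00156% against 0.000227%) and microglia, whose control nuclei had 0 erythroid UMIs. In OPC it was above in 2 of 3. The part of red cell RNA in the difference was not tested in any type.

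Like could be set against like only in a few control nuclei. Injured clusters 11 and 14 together held 1.16%, 0.686% and 0.883% (mean 0.908% ± 0.236, SD, n = 3). The 26 marker-bearing control nuclei of cluster 22 held 0.0923%, or 19 of 20585 UMIs, a ratio of 9.84, while against all control Endo nuclei the ratio was 15.2. The 3 injured libraries lay above the upper bound of the cluster 22 interval, 0.144%.

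The microglial clusters differed as well. Cluster 16, 2216 nuclei with lymphocyte genes, held 0.352% (0.391%, 0.346% and 0.299% by library). Cluster 6, 3698 nuclei with the macrophage scavenger receptors CD163 at 736 CPM and MRC1 at 370 CPM, held 0.164%, and cluster 21, 1798 nuclei with P2RY12 at 258 CPM, held 0.162%. The latter 2 lay above the control microglial cluster, at 0.0538% with P2RY12 at 233 CPM. Without cluster 16 the log2 ratio of injured to control nuclei annotated as microglia was 1.60, against 1.81 with it. Cluster 6, with CD163 and MRC1 among the genes that led it, was still in that ratio and made up the larger part of the injured nuclei left. The leukocyte genes (12 listed) gave 0.215%, 0.163% and 0.206% of microglial UMIs in the injured libraries and 0.0908% in the control. Their share also lay above the control in all 3 injured libraries in Endo (0.0104% to 0.0196% against 0.00196%), OPC (0.00514% to 0.00807% against 0.00267%), Astro (0.00598% to 0.00836% against 0.00312%) and Oligo (0.0079% to 0.0122% against 0.00775%), in 1 of 3 in ExN and in 0 of 3 in InN. The part of leukocyte RNA in the differences was not tested.

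Injured clusters ranged from 0.0560% to 0.879% and the 23 control clusters from 0.0428% to 0.0923%. Across the 29 injured clusters the share ran with that of the 25 ribosomal protein genes listed by identifier (Spearman rho 0.944) and with that of 13 other abundant cytoplasmic mRNAs such as FTL and ACTB (rho 0.924), and against the median UMIs per nucleus (rho −0.670). Across the 23 control clusters the same values were 0.459, −0.0138 and −0.598. Clusters share libraries and depth, so these are descriptions.

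**Figure D2:**
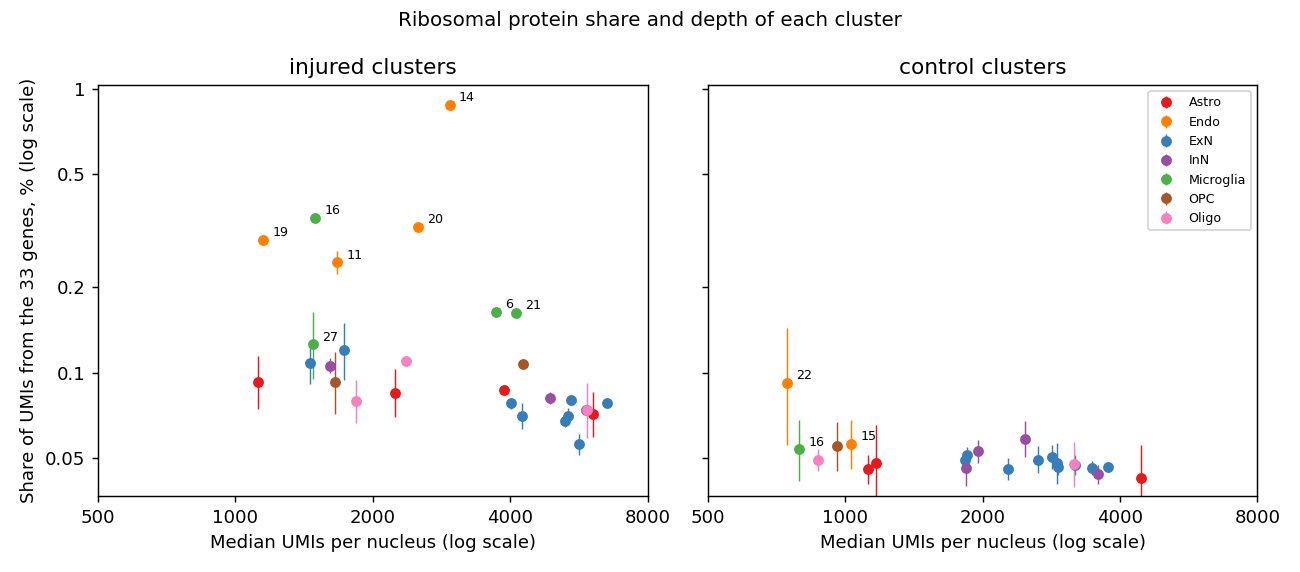
Share of UMIs from the 33 genes (percent, log scale) against median UMIs per nucleus (log scale), 1 point per annotated cluster, injured on the left and control on the right. Injured Endo and microglial clusters, marked by number, lie from 0.126% to 0.879% and all other injured clusters at 0.12% or below, and control clusters stay between 0.0428% and 0.0923%.

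Over all nuclei the genes did not move in proportion. Endo and microglia made up 15% and 26.2% of injured nuclei but 2.10% and 1.5% of control nuclei. Ratios over all nuclei therefore do not tell a change within a cell type from a change in the mix of types. CPM was above the control in all 3 injured libraries for 29 of the 33 genes, where 37.0% of all genes did this, and below it in all 3 for RPL34 and RPL3L, where 45.1% of all genes did this. The injured mean was over 3 times the control for 15 of the 33, against 10% of all genes, and below 1.5 times for 9. The largest ratio was that of RPS9, a small subunit protein near the mRNA path, with 92.1, 57.1 and 66.3 CPM against 4.12 CPM (ratio 17.4). RPS29, also of the small subunit, was at 72.8, 57.1 and 63.6 CPM against 4.55 CPM (14.2). Each had its injured libraries well apart from the control. RPL28 (ratio 13.5) and RPS16 (11.7) were also among the 6 genes above 10.

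At the other end RPL22, an RNA-binding large subunit protein whose loss ribosomes tolerate, was at 114, 97.3 and 105 CPM against 105 CPM, and the groups overlapped (ratio 1.0). It alone supplied 21.9% of the control ribosomal protein UMIs and 6.94% of the injured. RPL26 stood at 0.978 times, RPL34 at 0.720 times and RPL3L, the striated muscle form of RPL3, at 0.590 times the control. Among genes named as paralogs of another ribosomal protein, RPL22L1 was at 1.31, RPL26L1 at 1.36, RPL39L at 2.26 and RPS27L, a p53 target, at 2.59 times. The median ratio was 2.67 over the 33 genes and 0.948 over all genes with UMIs in both cohorts.

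**Figure D3:**
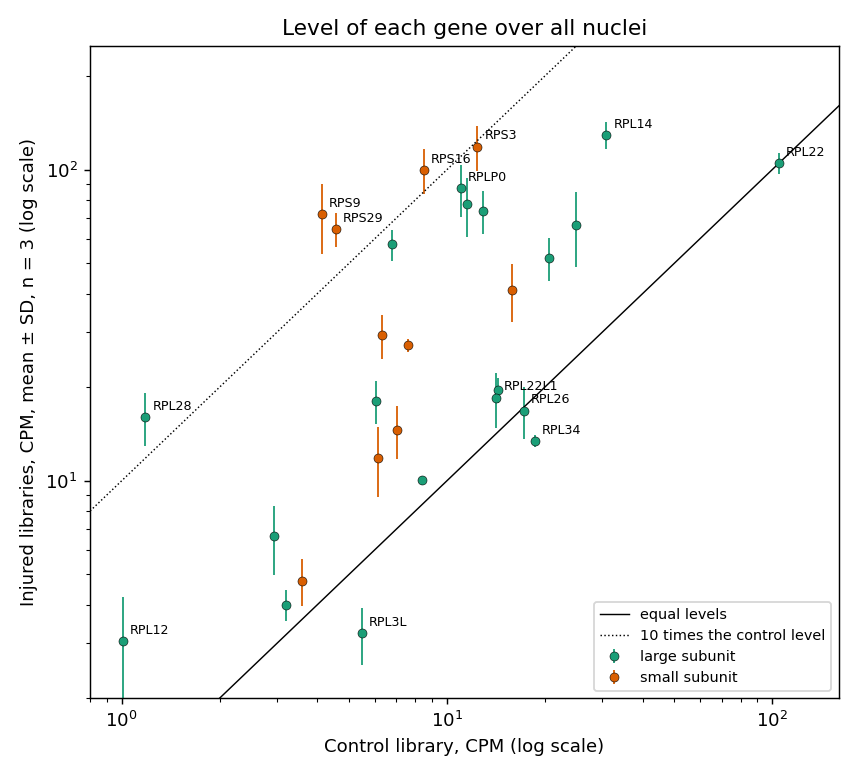
Level of 29 of the 33 genes over all nuclei, control CPM on the horizontal axis and injured CPM (mean ± SD, n = 3) on the vertical, both log scales, with lines at equality and at 10 times the control. RPS9, at 4.12 CPM in the control, lies above the upper line, RPL12, at 1.01 CPM, between the lines, RPL22, at 105 CPM, on the line of equality and RPL3L, at 5.47 CPM, below it.

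Single genes were tested in each cell type with edgeR's quasi-likelihood test over all genes, and a gene was called at an adjusted p (Benjamini-Hochberg) below 0.01, a natural log fold change above 0.25 and detection in at least 10% of nuclei of a cohort. Calls were made in 5 types, all upward: 16 of 33 genes in Endo (4.19% of all genes tested were called higher), 12 of 33 in ExN (2.6%), 11 of 32 in InN (2.2%), 4 of 30 in Oligo (0.619%) and 2 of 33 in Astro (1.12%). In microglia edgeR called 0 of 33 and 0.0% of all genes, although 18 had an unadjusted p below 0.05 with the gene higher (13.4% of all genes), and DESeq2 also called 0 (1.02% of all genes). In OPC edgeR called 0 of 31 (0.061% of all genes), 14 were higher at an unadjusted p below 0.05 (12.3%), and DESeq2 called 0 (0.593%). Microglia had 25 members, OPC 24 and Endo, the type with the most calls, 19 with 3 or fewer control UMIs. No member was called lower in any type by edgeR or DESeq2, where edgeR called lower 1.99% of all genes in Endo, 1.25% in ExN, 1.22% in InN, 0.378% in Astro, 0.155% in Oligo, 0.00871% in OPC and 0.0% in microglia. Of the 225 gene and type pairs tested 34 were fitted lower, where 45.7% of all pairs of a gene and a type were. Of the 225, 4 were lower at an unadjusted p below 0.05, against 13.4% of all pairs (RPL34 in ExN and Oligo, RPL26 in Oligo and RPL3L in InN).

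Of the 45 calls, 17 genes accounted for all, 11 were called in 3 types or more, and 16 genes were called in none. The fitted log2 fold changes of the members, with genes at 0 control UMIs set at their bound, had medians of 2.79 in Endo, 1.27 in OPC, 1.26 in Astro, 1.07 in InN, 1.07 in microglia, 1.05 in Oligo and 0.71 in ExN. The medians of all genes, fitted without bounds, were 0.26, 0.17, 0.05, 0.00, 0.42, 0.02 and 0.00 in the same order. They are therefore not like for like with the bounded medians of the members. Fitted without bounds, the medians of the members were 3.23 in Endo, 2.49 in microglia, 1.62 in OPC and 1.31 in Astro. Leaving out injured library 1 reduced the ExN calls from 12 to 1 and the Oligo and Astro calls to 0, so the number of calls outside Endo and InN depended on that library. The adjusted p of each of the 19 lost calls stayed below 0.05. With nuclei thinned to 1000 UMIs 8 calls remained, all in Endo. Of the 37 lost ones, 24 kept an adjusted p below 0.01 and missed the detection limit. Calls over all genes were not counted without library 1 or with thinning. Neither loss is thus shown to be particular to these members.

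**Figure D4:**
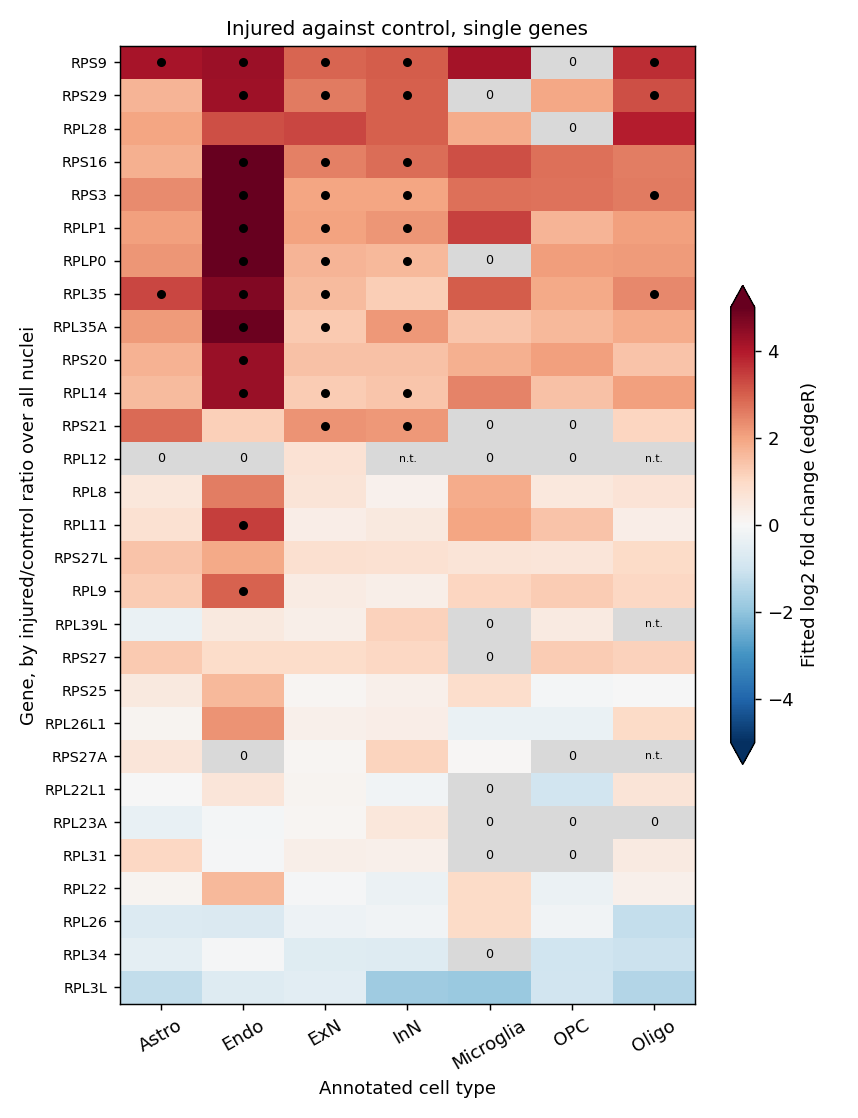
Fitted log2 fold change (edgeR, injured over control) of 29 of the 33 genes in each annotated cell type, genes ordered by their ratio over all nuclei; a black dot marks a call, a grey 0 marks a gene with no control UMI in that type, and n.t. one that was not tested. The calls drawn, 12 in Endo, 10 in ExN and 9 in InN among them, lie mostly on genes toward the end of the highest ratios, and no dot stands on a gene fitted lower.

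RPS9 was called in 5 types, more than any other member. In Astro it rose from 2.31 CPM (2 UMIs) to 42.5, 38.6 and 34.4 CPM, a ratio of 16.3 with a 95% counting interval of 4.49 to 135 (adjusted p = 0.0053). In ExN it rose from 4.10 to 34.5, 25 and 26.4 CPM, a log2 fold change of 2.91 (SE 0.26, adjusted p = 0.0015). In Oligo it rose from 4.70 to 68.1, 59.4 and 42.2 CPM (log2 fold change 3.68, SE 0.46, adjusted p = 0.0077). Injured libraries and control did not overlap in any type. In microglia the injured libraries held 133, 127 and 103 CPM against 1 control UMI (8.03 CPM, adjusted p = 0.043), which missed the limit.

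RPL35, RPS29 and RPS3 were called in 4 types each. RPL35, a large subunit protein near the peptide exit, rose in Astro from 4.62 to 53.7, 45.8 and 34.2 CPM (log2 fold change 3.35, SE 0.52, adjusted p = 0.0096), a call lost without injured library 1 (adjusted p = 0.016). RPS29, a small zinc-binding protein of the small subunit head, rose in ExN from 4.27 to 26.8, 24.1 and 21.9 CPM (2.62, SE 0.21, adjusted p = 0.0012). RPS3, at the mRNA entry, rose in Endo from 19.6 CPM (4 UMIs) to 804, 469 and 669 CPM (5.17, SE 0.55, adjusted p = 0.00086). In ExN RPS3 rose from 12.5 to 50.8, 43.1 and 40.7 CPM (1.96, SE 0.18, adjusted p = 0.0016). For each of the 3, the lowest injured library was above the control in all 7 types.

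RPS16, RPL14, RPL35A, RPLP0 and RPLP1 were called in Endo, ExN and InN. RPLP0 and RPLP1 are the acidic stalk proteins that recruit elongation factors. RPLP0 was at 589, 319 and 433 CPM in injured Endo against 1 control UMI, a ratio of 86.6 with an interval of 15.5 to 3422, and in ExN it rose from 10.8 to 37.4, 30.3 and 29.7 CPM (log2 fold change 1.70, SE 0.19, adjusted p = 0.0030). In microglia, where the control had 0 UMIs against 112, 116 and 91 CPM, RPLP0 was at least 4.44-fold higher, measured against a floor of 3 UMIs over the cohort, and was not called (adjusted p = 0.038). RPLP1 in ExN rose from 6.73 to 26.4, 23.3 and 24.8 CPM (2.0, SE 0.18, adjusted p = 0.0016). In ExN the 3 injured libraries of each lay close together and apart from the control.

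RPS16 had the smallest adjusted p of the members, in InN, where it rose from 6.16 to 44.4, 42.7 and 34.7 CPM (log2 fold change 2.81, SE 0.30, adjusted p = 0.00045). RPL14 rose in Endo from 29.4 CPM to 535, 431 and 634 CPM (4.31, SE 0.45, adjusted p = 0.00084) and in ExN from 32 to 64.3, 74.2 and 72.6 CPM (1.25, SE 0.16, adjusted p = 0.0039). For RPL14 injured library 1 was the lowest of the 3 in ExN, InN, Astro, Oligo and microglia. RPL35A in InN rose from 7.46 to 36.8, 27.5 and 29.7 CPM (2.15, SE 0.31, adjusted p = 0.0023).

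RPS20, RPL11 and RPL9 were called in Endo and in no other type. RPL11 rose in Endo from 24.5 CPM (5 UMIs) to 329, 175 and 231 CPM (log2 fold change 3.44, SE 0.60, adjusted p = 0.0061), while in ExN it was at 36.3, 22.6 and 26.5 CPM against 24.1, on either side of the control (0.34, adjusted p = 0.35). RPL9 rose in Endo from 34.3 CPM (7 UMIs) to 317, 177 and 239 CPM (2.96, SE 0.53, adjusted p = 0.0067), while in InN it was at 24.8, 26.7 and 22.3 CPM against 21.4 (0.31, adjusted p = 0.40). RPS20 was at 111, 91.1 and 71.9 CPM in injured Endo against 1 control UMI, a ratio of 17.9 with an interval of 3.21 to 709. All 3 had their injured Endo libraries above the control, and RPS20 and RPL9 had all 3 injured libraries above it in all 7 types. The interaction test given below called no difference between Endo and the other types for RPS20, RPL11 or RPL9. An effect confined to Endo is thus not shown for them.

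RPS21 had another pattern. It was called in ExN and InN and not in Endo, and it was the only member whose highest injured type was ExN. In ExN it rose from 7.96 to 39.9, 28.7 and 36.4 CPM (log2 fold change 2.24, SE 0.23, adjusted p = 0.0022) and in InN from 7.78 to 42.0, 29.1 and 29.0 CPM (2.18, SE 0.34, adjusted p = 0.0033). In Endo it stood at 27.5, 29.3 and 33.7 CPM against 14.7 CPM (3 UMIs), with a ratio of 2.09 and an interval of 0.709 to 10.2. Whether its injury effect differed between Endo and the other types could not be shown (adjusted p = 0.40 for the difference).

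Members that were not called had values on both sides of the control. RPL28 had one of the larger changes in ExN, from 0.995 to 12.3, 8.04 and 7.99 CPM (log2 fold change 3.34, SE 0.41, adjusted p = 0.0036), and missed only the detection limit, with a UMI in 5.18% of injured ExN nuclei. RPL22 missed the limit in Endo, with 261, 175 and 230 CPM against 78.4 CPM (1.63, SE 0.36, adjusted p = 0.016), and in ExN it was at 106, 90.0 and 94.8 CPM against 108. RPL3L in InN was at 2.40, 2.01 and 2.72 CPM against 8.75 CPM (−1.78, SE 0.45, adjusted p = 0.026). RPL26 was at 13.5, 10.7 and 12.3 CPM in ExN against 15.6 CPM and at 17.3, 18.8 and 19.8 CPM in Endo against 34.3 CPM (7 UMIs), neither passing the test. RPS25, of the small subunit head, was at 80.2, 40.8 and 47.6 CPM in Endo against 19.6 CPM (4 UMIs), above the control but not called (1.62, SE 0.79, adjusted p = 0.19), and in ExN at 6.85, 5.31 and 4.97 CPM against 5.79 CPM. RPS27L in ExN was at 28.3, 23.0 and 23.2 CPM against 15.3 CPM (0.81, adjusted p = 0.024).

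Levels across the injured cell types followed a common order with exceptions. Mean CPM was highest in Endo for 27 of the 33 genes and lowest in ExN or InN for 23. RPS3 and RPS29 were among the widest in span, with 15 and 13.9 times as many CPM in their highest type, Endo, as in their lowest. RPL23A, RPS27 and RPL34 had the narrowest, at 1.99, 2.15 and 2.17 times. RPL23A and RPL3L were highest in Astro, at 6.55 and 5.41 CPM, and RPL12, RPL26 and RPS27A in microglia, at 5.80, 26.3 and 7.10 CPM. The cell types were annotated from the same transcripts, so these levels are descriptions.

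Whether the injury effect in a cell type differed from that in the other types was tested as an interaction with a term for library. In Endo 4 of 33 members had a larger effect than in the other types (1.35% of all genes), and 13 did at an unadjusted p below 0.05 (8.8%). For RPL35A the Endo effect exceeded that of the others by 3.15 on the log2 scale (SE 0.61, adjusted p = 0.0023), for RPL14 by 2.61 (SE 0.52, adjusted p = 0.0030) and for RPL22 by 1.5 (SE 0.29, adjusted p = 0.0022). All 4 were among the 19 members with a control UMI in each of the 7 types. For the other 14 the control stood at 0 in a type, and the difference could be estimated poorly or not at all. In the 6 remaining types edgeR gave 0 members with a larger or smaller effect at this limit. Of all genes, 1.06% had a larger effect in microglia, 0.108% in Astro, 0.0948% in OPC, 0.0609% in Oligo and 0.0474% each in ExN and InN, and 1.47%, 0.42%, 0.0948%, 0.244%, 0.203% and 0.0812% a smaller one in the same order. At an unadjusted p below 0.05 the effect was larger in microglia for 3 members (8.05% of all genes) and smaller in ExN for 16 (14%), in InN for 11 (11.5%), in Oligo for 6 (11.2%), in Astro for 4 (11.6%) and in OPC for 1 (5.32%). DESeq2 was not run for this interaction.

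The Endo comparison was repeated with the marker-bearing clusters. Injured clusters 11 and 14 against all control Endo nuclei gave 18 of 31 members called higher (8.06% of all genes). Against the 26 nuclei of control cluster 22 alone, edgeR called 0 of 31 (0.0267%, or 3 of 11257 genes), with 17 higher at an unadjusted p below 0.05 (11.3% of all genes) and 27 fitted higher (76.4% of all genes). With 3 genes called in all, a missing call there says little about a member. The 4 interaction results were not called there either, where 0.0622% of all genes were (adjusted p of 0.10 for RPL14, 0.18 for RPL35A and 0.51 for RPL22). DESeq2 was not run on those clusters.

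Other genes of the ribosome and its surroundings were read from lists. Of the 25 ribosomal protein genes listed by identifier, edgeR called 11 of 24 tested higher in Endo (4.19% of all genes), 7 of 25 in ExN (2.6%), 7 of 24 in InN (2.2%), 4 of 24 in Astro (1.12%) and 2 of 23 in Oligo (0.619%). In microglia and OPC edgeR and DESeq2 called 0, and 10 and 8 were higher at an unadjusted p below 0.05 (13.4% and 12.3% of all genes). Their share of UMIs was 23.7 times the control in Endo and 2.27 to 4.03 times in the other types. Apart from those 25, 4 ribosomal protein genes had symbols outside the name rule. Of them edgeR called 3 of 4 higher in Endo (4.19% of all genes) and 1 of 4 each in ExN (2.6%), InN (2.2%) and Astro (1.12%). It called 0 of 4 in Oligo (0.619%), OPC (0.061%) and microglia (0.0%). FAU, whose symbol is outside the rule and whose product is a ubiquitin-like protein fused to RPS30, rose in ExN from 17.3 to 64.3, 54.6 and 58.3 CPM (log2 fold change 1.88, SE 0.15) and was called in 4 types.

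Some abundant cytoplasmic mRNAs of unrelated function rose as well. Of 13 listed, 8 of 13 tested were called higher in Endo (4.19% of all genes), 3 of 12 each in ExN (2.6%) and InN (2.2%), 2 of 12 each in Astro (1.12%) and Oligo (0.619%) and 1 of 12 in OPC (0.061%). In microglia edgeR called 0 of 13 and DESeq2 2, and 5 were higher at an unadjusted p below 0.05 (13.4% of all genes). FTL, the ferritin light chain, was called in 6 types, and in ExN it rose from 13.5 to 183, 127 and 157 CPM (log2 fold change 3.63, SE 0.24). PTMA, encoding prothymosin alpha, rose in Endo from 14.7 CPM (3 UMIs) to 1281, 1127 and 1271 CPM. The share of this list was 10.6 times the control in Endo, 2.81 in microglia, 2.85 in OPC, 2.16 in Oligo, 2.06 in Astro, 1.74 in ExN and 1.70 in InN. Those ratios stood beside 10.4, 3.50, 1.97, 2.19, 1.94, 1.67 and 1.64 for the ribosomal protein genes, and the part of cytoplasmic RNA retained with nuclei in either was not tested.

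Genes of the machinery that uses ribosomes were called in some types, and few of those that build them were. Of 32 translation factors, 7 of 32 tested were called higher in ExN (2.6% of all genes), 5 of 31 in Endo (4.19%), 4 of 32 in InN (2.2%) and 1 of 31 each in Astro (1.12%) and Oligo (0.619%). In microglia and OPC edgeR and DESeq2 called 0 of 31. There 13 and 8 were higher at an unadjusted p below 0.05 (13.4% and 12.3% of all genes). Over the 7 types the share of the list was 0.972 to 1.79 times the control. Those called included EEF2, the translocation factor, which rose in ExN from 14.2 to 59.3, 58.2 and 58.3 CPM (log2 fold change 2.16, SE 0.14), EIF4A1, the cap-complex helicase, called in 4 types, and PABPC1, the cytoplasmic poly(A)-binding protein, called in 3. EEF1A2, the neuronal elongation factor, rose in ExN from 19.3 to 60.8, 51.4 and 58.2 CPM (1.67, SE 0.15). Of 51 ribosome biogenesis genes, 1 was called higher in Endo, NCL (nucleolin) (4.19% of all genes), and 1 in ExN, NOP56 (2.6%). These upward counts lay below the shares over all genes. In ExN 1 was called lower (1.25% of all genes), the rRNA methyltransferase NOP2, at 44.9, 40.5 and 44.7 CPM against 87.1 CPM (−0.89, SE 0.12). In the other 5 types edgeR and DESeq2 called 0 higher. At an unadjusted p below 0.05, 6 to 10 of 49 to 51 tested were higher, where 12.3% to 17.8% of all genes were, and the share of the list was 0.929 to 1.25 times the control over the 7 types.

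Mitochondrial ribosomal proteins, which serve the separate organelle ribosome, had 2 of 47 tested called higher in Endo by edgeR (4.19% of all genes) and 0 by DESeq2 (3.43%). In ExN edgeR called 1 of 48 lower (1.25% of all genes), and DESeq2 called 1 higher (5.05%). In the other 5 types edgeR called 0 and DESeq2 1, in Astro, where it called 2.14% of all genes higher (6 to 12 of 46 to 48 higher at an unadjusted p below 0.05, against 12.3% to 17.8% of all genes). The share of this list was 0.898 to 1.30 times the control. Of 15 genes of the mTOR axis, 1 was called higher (4.19% of all genes) and 1 lower (1.99%) in Endo. Elsewhere edgeR and DESeq2 called 0 (2 to 4 of 15 higher at an unadjusted p below 0.05, against 12.3% to 20.2% of all genes). The share of the mTOR list was 0.665 to 1.06 times the control. Of 10 genes of the p53 and ribosomal stress response edgeR and DESeq2 called 0 in every type. At an unadjusted p below 0.05, 6 of 10 were higher in OPC (12.3% of all genes) and 0 to 3 of 8 to 10 tested in the other types (13.4% to 20.5%). The share of the list in OPC was 1.59 times the control, with all 3 injured libraries above, and 0.842 to 1.03 times in the other types. Of 3 erythroid genes 1 was called higher, in Endo (4.19% of all genes). Of 12 leukocyte genes edgeR called 0 in any type and DESeq2 called 1, in microglia (1.02% of all genes). At an unadjusted p below 0.05, 5 of 12 leukocyte genes tested were higher in microglia (13.4% of all genes) and 3 of 7 in Oligo (17.0%). In ExN 3 of 12 were (20.2%), in Astro 2 of 7 (16.7%) and in InN 2 of 8 (17.8%). In Endo 2 of 11 were (20.5%) and in OPC 0 of 4 (12.3%).

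**Figure D5:**
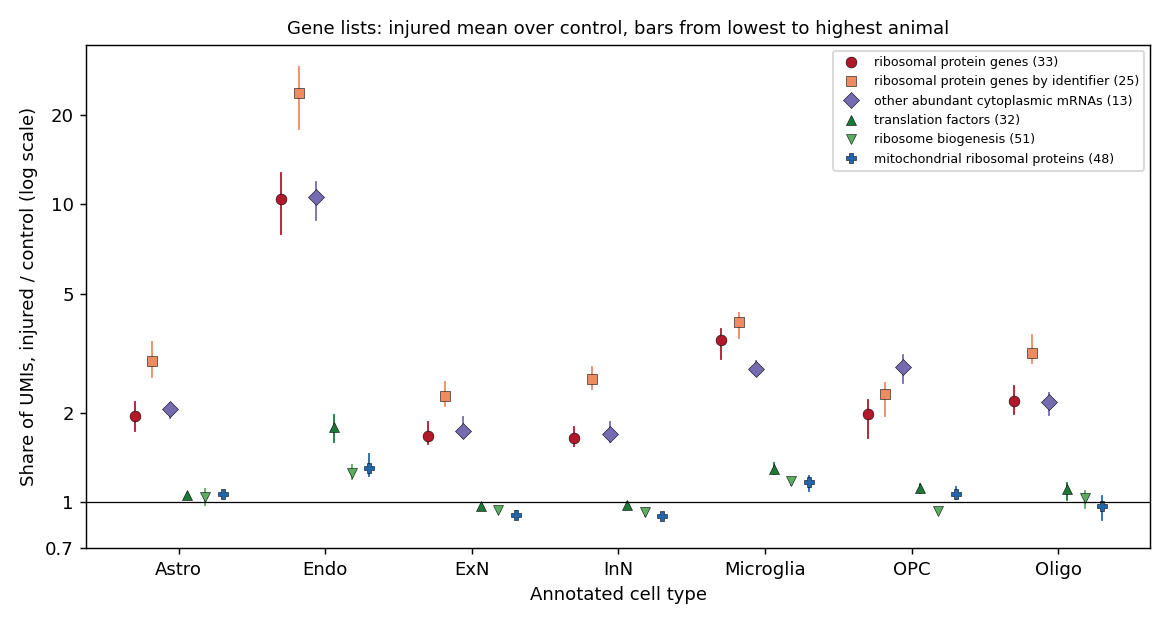
Share of UMIs of each gene list in injured over control nuclei (log scale) by annotated cell type, points at the mean of 3 injured libraries and bars from the lowest to the highest animal. The 33 ribosomal protein genes, those listed by identifier and the abundant cytoplasmic mRNAs lie above 1 in all 7 types, up to 23.7 in Endo, and translation factors, ribosome biogenesis genes and mitochondrial ribosomal proteins lie between 0.898 and 1.79.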

How the data were processed

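Nuclei of 3 injured libraries and 1 pooled control library were profiled on the 10x platform. Per the labels and methods, the authors aligned and counted reads with Cell Ranger 3.1.0 on calJac3 with an Ensembl annotation adapted to nuclei, filtered nuclei, clustered each cohort with Seurat and deposited raw UMI counts and the annotated cell type and cluster of each nucleus. Cell Ranger keeps only uniquely mapped reads, so genes with near-identical pseudogene copies can be undercounted, and where UMIs or CPM of different genes stand side by side they are not corrected for this. The RefSeq spans of 15 of the 33 genes (another assembly, used for neighbours only) overlap another gene, among them RPL35A with DRC9, RPL9 with KLB and RPS25 with CENATAC, so their counts are less certain. No sequences are shown here. Values of some single genes, and their points in the figures, are left out, and counts over the 33 genes include them.

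UMIs were added up within each library and cell type in Python 3.11.15 (pandas 2.3.3). Shares and CPM were taken over the UMIs of all genes listed for the cohort. As an alternative, the ratio of the share was also computed over the genes listed for both cohorts. Genes passing edgeR's low-count filter were tested with edgeR 4.0.16 (TMM, glmQLFit, glmQLFTest) in R 4.3.3, 3 injured libraries against 1 control. The limits for a call followed those of the study, with an adjusted p of 0.01, 0.25 on the natural log scale and detection in 10% of the nuclei of either cohort. The interaction used all cell types with the library as a block. Ratios against 1 to 3 control UMIs carry exact counting intervals, and 0 control UMIs were set to a floor of 3. Both used the UMIs of the 3 injured libraries added together, whereas other ratios used the mean of the 3. Intervals are exact (Clopper-Pearson, 95%). The edgeR script was tested on simulated counts.

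Members and gene lists were chosen with earlier results of these data known. Members named with values were the 10 with the highest mean CPM, those called in a cell type, the 5 highest and 5 lowest by mean fold change, the paralogs, and the 3 widest and 3 narrowest in span over cell types, apart from the genes not reported here. RPL12, RPS27A and the 2 genes with 0 UMIs were named after their values were seen. Alternatives were DESeq2 1.42.0, library size alone, no low-count filter, nuclei of at most 2500 genes, thinning to 1000 UMIs, an adjusted p limit of 0.05, leaving out each injured library and, chosen after seeing the data, sets of marker-bearing clusters and the genes listed by identifier.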

Additional observations from a re-analysis of the deposited data

Results flagged for a closer look

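The injury effect differed between nuclei annotated as Endo and the other cell types, by an interaction test in edgeR, for RPL35A, RPL14 and RPL22. The difference was 3.15 on the log2 scale for RPL35A, 2.61 for RPL14 and 1.5 for RPL22, each larger in Endo. Without injured library 1 none of these was called, with adjusted p of 0.020, 0.023 and 0.027 in the same order. Without injured library 3 RPL22 was lost (adjusted p = 0.013). With injured clusters 11 and 14 against the 26 marker-bearing control nuclei none of them was called, where 0.0622% of all genes were, and each difference was still above 0, with adjusted p of 0.18 for RPL35A, 0.10 for RPL14 and 0.51 for RPL22.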

How the results depend on the processing

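No paired analysis was possible because the control cohort is 1 pooled library, whose number pairs it with no single injured library. No call, interaction result or log2 ratio of the share changed direction under the alternatives run. The fitted sign turned in 0 of 225 pairs of a member and a type with DESeq2, 4 of 225 with library size alone, 2 of 225 without the low-count filter, 5 of 208 at 2500 genes, 16 of 192 with thinning, 2 to 4 without an injured library and 3 each with the chosen and the marker-bearing clusters, and 0 of these pairs were called or had an unadjusted p below 0.05 before. Of 59 recomputed medians of the members' log2 fold change 59 stayed above 0. Numbers of members called higher moved by more than 1.5 times as follows. Astro calls (2) became 1 with library size alone, 6 without the low-count filter, 0 with thinning to 1000 UMIs and 11 at an adjusted p limit of 0.05 (4.44% of all genes). Endo calls (16) became 8 with thinning and 0 with marker-bearing clusters in both cohorts. ExN calls (12) became 0 with thinning, and InN calls (11) became 0 with thinning and 7 in nuclei of at most 2500 genes. Oligo calls (4) became 7 with DESeq2 (1.46% of all genes) and 8 at the limit of 0.05 (3.03%). They became 8 without the filter, 0 with thinning and 7 at 2500 genes. Microglial calls (0) became 3 at that limit (1.51%). Leaving out an injured library gave 0 to 8 calls in Astro, 15 to 19 in Endo, 1 to 12 in ExN, 10 to 12 in InN, 0 to 2 in OPC and 0 to 7 in Oligo, with 0 in microglia. Members whose Endo effect differed (4) became 9 at the limit of 0.05 (7.61% of all genes), 11 with injured clusters 11 and 14 (6.29%) and 0 with marker-bearing clusters in both cohorts (0.0622%), and 1 to 8 without an injured library. At the limit of 0.05 ExN had 1 member with a smaller effect than the other types, and no share over all genes was worked out for it. The log2 ratio of the share moved in Astro from 0.96 to 1.17, in Endo from 3.38 to 3.75, in ExN from 0.74 to 0.89, in InN from 0.71 to 0.93 and in Oligo from 1.13 to 1.32 when the genes listed by identifier were added. It moved to 3.93 in Endo with injured clusters 11 and 14, to 1.60 in microglia without cluster 16, to 0.72 in OPC (from 0.98) with thinning, to 0.95 in ExN and 1.0 in InN at 2500 genes, and to 0.88 in InN as the mean over nuclei. Counts given without a share over all genes had none worked out for that setting. Those moves are not shown to be particular to the members. The causes of the moves were not tested. Thinning changed depth and also left out nuclei below 1000 UMIs. The marker-bearing clusters changed the control nuclei in number and in markers together.

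Of the 45 calls on single genes, 44 held with DESeq2, 41 with library size alone, 45 without the filter, 32 at 2500 genes and 8 with thinning, and 26, 45 and 44 held without injured library 1, 2 and 3. Library size alone moved the median of all genes by −0.10 to −0.24 on the log2 scale, and the share of all calls that were higher fell from 74.9% to 57.7% in Astro, 67.8% to 57.4% in Endo, 67.5% to 49.9% in ExN and 64.3% to 47.6% in InN. Depth limits Endo, microglia and OPC, whose control nuclei gave 122, 67 and 103 member UMIs.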
